A study of Drosophila melanogaster with 8 samples.

Results

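Sxl RNAi was set against GFP RNAi in Kc cells, a cell line derived from female *Drosophila melanogaster* embryos. All 18769 probe sets of an Affymetrix *Drosophila* expression array that are not array controls were taken, of 18952 in the table, on 6 of the 8 arrays of the series. In the 3 arrays labelled Sxl RNAi, double-stranded RNA directed against *Sxl* had been given to the cells, and in the 3 arrays labelled GFP the double-stranded RNA was directed against GFP, which the fly genome does not encode, so that every group was exposed to double-stranded RNA. The other 2 arrays, labelled Sxl and Msl2 RNAi, entered the fit, share its estimate of the spread and are used in 1 closing comparison. The sample descriptions name the control of each knockdown array: Sxl RNAi replicate 2 goes with GFP replicate 1 (control set 1), Sxl RNAi replicate 1 with GFP replicate 2 (control set 2) and Sxl RNAi replicate 3 with GFP replicate 3 (control set 3). The labels give no time of harvest, and they do not say that the arrays of a group came from separate cultures, so that the p-values below measure the spread between these arrays, which may be technical. All groups are 1 established line, and its response need not be that of tissue in the fly.

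Sex lethal (Sxl) is an RNA-binding protein made in female flies, where it directs splicing of sex determination transcripts and blocks translation of *msl-2*. Male cells make MSL2, which assembles with the other MSL proteins and roX RNAs into a complex that binds active genes of the single X, acetylates histone H4 there and raises their transcription. Removing Sxl from a female cell therefore bears on the X first, and the genes described here are mostly those outside the MSL, sex determination and cell cycle lists.

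The values are log2 RMA values, in which a difference of 1 is a doubling, and array medians lay between 4.40 and 4.46. A gene was read on its probe set of highest mean, and a gene or probe set is said to rise, fall or be called where its adjusted p (limma, Benjamini-Hochberg over all probe sets) was under 0.05. Of 11982 genes, 5991 lay above the median level of 5.24 and are called expressed. The defining markers of plasmatocytes, the blood cell type Kc cells resemble, were expressed for 10 of 12 genes, against 0 of 4 for fat body, 0 of 2 for gut and 0 of 3 for epidermis. Of the markers of other types, 3 of 4 were expressed for glia, 2 of 5 each for neurons, lamellocytes and the germ line, 1 of 4 for crystal cells and 1 of 5 for muscle. The summed plasmatocyte marker level was 12.5 to 13.1 in Sxl RNAi and 12.9 to 13.2 in GFP, and 1 of the 12 markers rose and 3 fell. The arrays of control set 2 stood apart from the other 4 arrays in level for many genes, and each set is therefore compared within itself.

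The knockdown was modest on these probe sets. The brightest *Sxl* probe set read 6.09, 6.64 and 6.93 in Sxl RNAi, against 7.20, 7.01 and 6.99 in GFP, in the order of control sets 1, 2 and 3 that is kept for all values below. The groups did not overlap, but the change of -0.51 ± 0.17 (SE) was not called (adjusted p = 0.124), and the pair difference nearly vanished in control set 3. A second *Sxl* probe set fell by 0.64 ± 0.15 (adjusted p = 0.0373), and the third, which was dim, changed by -0.05. *msl-2* was higher in every pair, at 5.33, 6.19 and 5.61 in Sxl RNAi and 4.32, 4.47 and 4.51 in GFP (1.28 ± 0.13, adjusted p = 0.000966).

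Among all genes, 1053 were called (8.79%), with 631 higher (5.27%) and 422 lower (3.52%). On the X, 406 of 1873 genes rose (21.7%) and 22 fell (1.17%), whereas on the autosomes 222 of 10018 rose (2.22%) and 400 fell (3.99%). When arrays were centred on the median of their autosomal genes, 799 genes rose and 263 fell, and the share of rises among calls was 75.2% where the values as deposited gave 59.9%. On the autosomes 313 then rose and 248 fell, so that the excess of autosomal falls turned to an excess of rises with this scaling. Over probe sets in place of genes, 1290 were called (6.87%). Among genes under the expression level, 63 of 5991 were called (1.05%). Of the 4720 probe sets with no gene symbol, 79 rose (1.67%) and 49 fell (1.04%), 2.71% in all.

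The rises and falls were small and mostly under 1 log2 unit. The median rise was 0.47 for X genes, with quartiles of 0.38 and 0.64, and 0.48 for autosomal genes. The median autosomal fall was -0.38. Only 21 autosomal rises, 12 autosomal falls and 14 X rises reached 1 log2 unit. The autosomal rises also varied more between pairs, with a median SD of 0.196 over the 3 pairs, against 0.118 for the autosomal falls and 0.119 for the X rises.

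The 3 pairs were not alike in size. The 222 autosomal rises had a median pair difference of 0.62 in control set 1, 0.35 in control set 2 and 0.47 in control set 3, and the 400 autosomal falls had -0.43, -0.32 and -0.42. X rises were closer, at 0.53, 0.46 and 0.43. Across the 4929 expressed autosomal genes, the pair differences of control sets 1 and 3 correlated at r = 0.763, those of sets 1 and 2 at 0.513 and those of sets 2 and 3 at 0.515. For the 1047 expressed X genes the same values were 0.842, 0.641 and 0.662. These describe agreement across genes, which are not independent, and no array is shared between pairs.

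**Figure D1:**
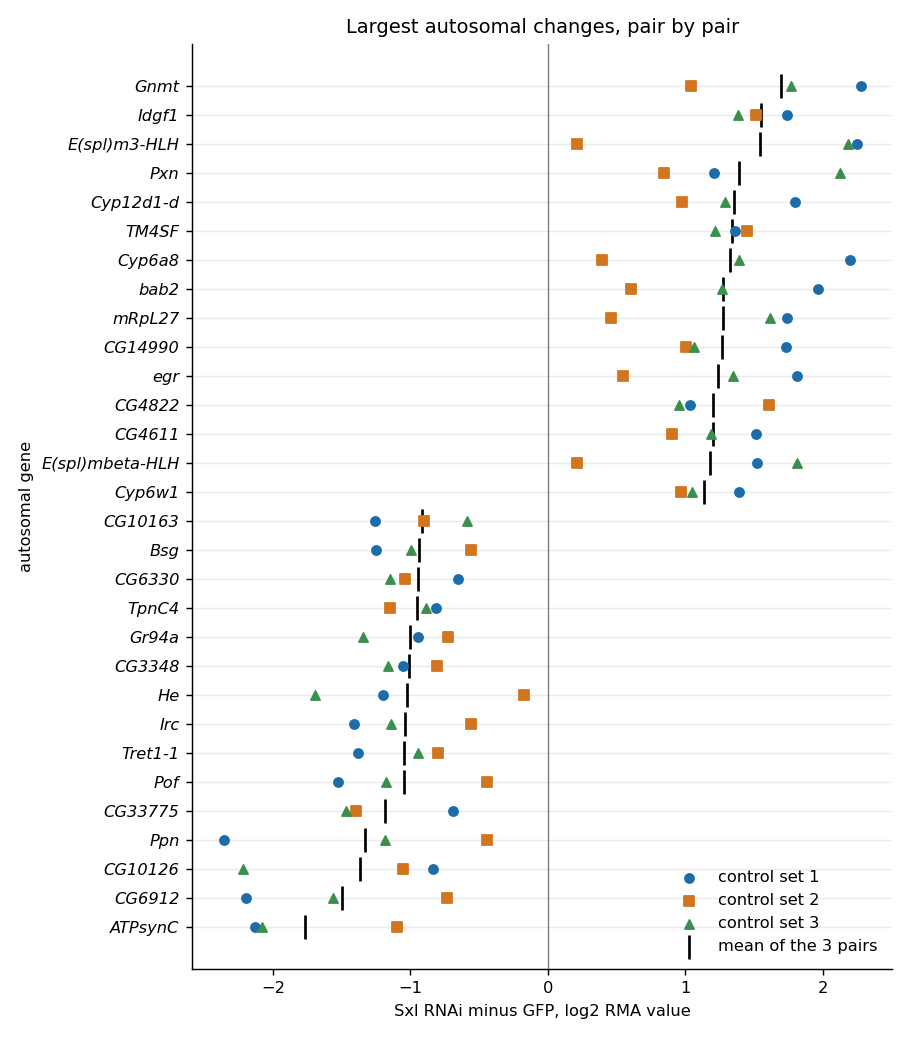
Difference of Sxl RNAi minus GFP in log2 RMA value for the 15 largest rises and 15 largest falls on the autosomes, with 1 point for each control set and a black bar at their mean. All points of a gene lie on the same side of 0, which the choice of genes required, and control set 2 holds the smallest difference for 12 of the 15 rises and 10 of the 15 falls.

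Of the 15 largest autosomal rises, those with steady pairs differ from those carried by control sets 1 and 3. *Idgf1*, a secreted chitinase-like growth factor, stood at 7.72, 9.12 and 8.28 in Sxl RNAi and 5.98, 7.60 and 6.90 in GFP. The rise of 1.55 ± 0.08 (2.93-fold, adjusted p = 0.000134) was close to equal in the pairs, although levels in control set 2 were well above those in set 1 in both groups. *TM4SF*, a tetraspanin of the cell membrane, read 8.19, 7.86 and 7.67 in Sxl RNAi and 6.83, 6.41 and 6.46 in GFP (1.34 ± 0.10, adjusted p = 0.000492). *CG4611* read 8.14, 7.98 and 8.04 in Sxl RNAi and 6.62, 7.08 and 6.85 in GFP (1.20 ± 0.10, adjusted p = 0.000588). Both genes had groups that did not overlap, and theirs were the 2 autosomal calls among these 30 that held without the control sets as a block.

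Other rises were larger in some pairs than in others. *Gnmt*, which encodes a methyltransferase that consumes S-adenosylmethionine, stood at 10.73, 10.74 and 11.23 in Sxl RNAi and 8.45, 9.70 and 9.46 in GFP (1.70 ± 0.19, 3.24-fold, adjusted p = 0.00144). The Sxl RNAi arrays were close together here, and the GFP arrays spread. *Pxn*, a peroxidase of the extracellular matrix, read 6.92, 9.30 and 8.51 in Sxl RNAi and 5.71, 8.45 and 6.39 in GFP (1.39 ± 0.22, adjusted p = 0.00586), with groups that overlapped. A second *Pxn* probe set, dim at a mean of 3.77, changed by 0.03 and was not called (adjusted p = 0.898). *egr*, the fly tumour necrosis factor ligand, read 7.30, 6.68 and 8.07 in Sxl RNAi and 5.49, 6.13 and 6.72 in GFP (1.24 ± 0.18, adjusted p = 0.00468). A second *egr* probe set stood higher by 0.83 and was not called (adjusted p = 0.0522).

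The transcription factor genes among the rises rested on control sets 1 and 3. *bab2*, a BTB-domain factor, read 6.45, 8.54 and 7.72 in Sxl RNAi and 4.49, 7.94 and 6.45 in GFP (1.28 ± 0.23, adjusted p = 0.0125). *E(spl)m3-HLH* and *E(spl)mbeta-HLH*, repressors that are themselves part of the Notch response, were higher by 1.55 ± 0.32 and 1.18 ± 0.25 (adjusted p = 0.0203 and 0.0239). *E(spl)m3-HLH* was at 3.85 in the Sxl RNAi array and 3.64 in the GFP array of control set 2, and its call, like that of *E(spl)mbeta-HLH*, was lost without any 1 of the 4 arrays of control sets 1 and 3. *bab2* was no longer called when Sxl RNAi replicate 2 or replicate 3 was left out.

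The mitochondrial gene *mRpL27*, of the large mitochondrial ribosomal subunit, read 8.75, 8.69 and 9.04 in Sxl RNAi and 7.01, 8.23 and 7.42 in GFP (1.27 ± 0.20, adjusted p = 0.00682). Without GFP replicate 1 it was not called. *CG4822* rose most in control set 2, at 9.33, 8.84 and 9.79 in Sxl RNAi and 8.29, 7.23 and 8.84 in GFP (1.20 ± 0.12, adjusted p = 0.000918). *CG14990* read 8.24, 6.0 and 7.16 in Sxl RNAi and 6.50, 4.99 and 6.09 in GFP (1.27 ± 0.15, adjusted p = 0.00166). Both were higher in all 3 pairs, and the groups of both overlapped.

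**Figure D2:**
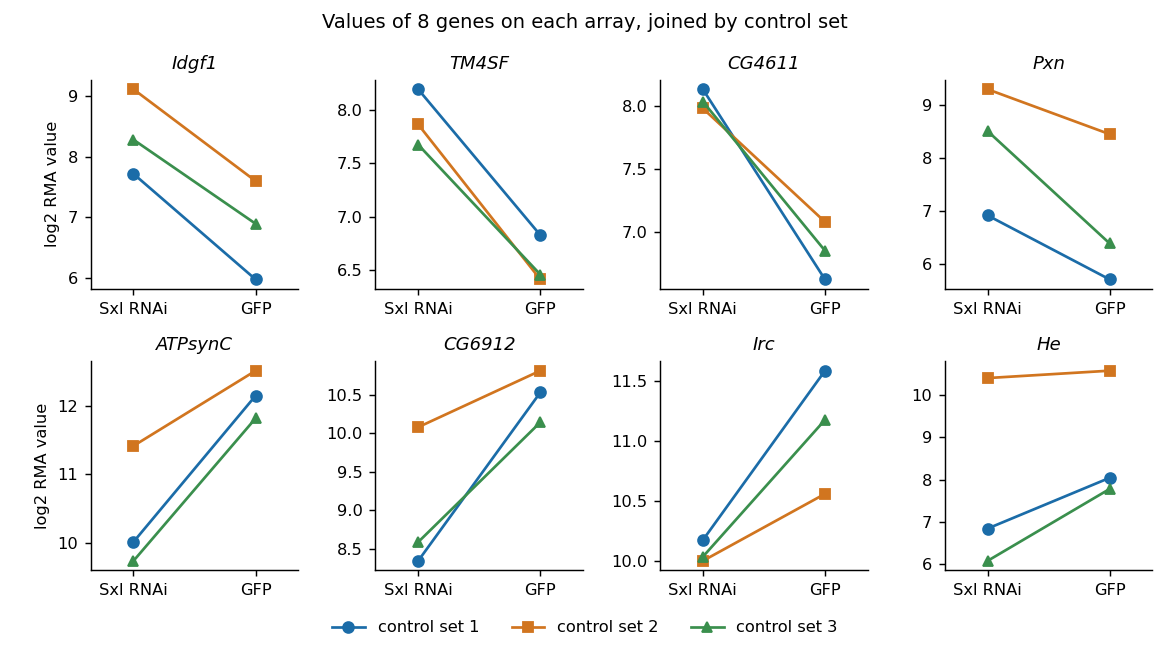
Log2 RMA value of 8 autosomal genes on each array, Sxl RNAi at the left and GFP at the right of each panel, with a line joining the arrays of 1 control set and a separate scale for each gene. *Idgf1*, *TM4SF* and *CG4611* have groups that do not overlap, with Sxl RNAi above GFP in every set, while in *Pxn* and *He* the control sets lie further apart than the treatments.

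The largest autosomal fall was that of *ATPsynC*, which encodes the c subunit of the mitochondrial ATP synthase. It stood at 10.02, 11.42 and 9.74 in Sxl RNAi and 12.15, 12.51 and 11.82 in GFP (-1.77 ± 0.17, adjusted p = 0.000826), and the groups did not overlap. *CG6912* followed at 8.34, 10.08 and 8.58 in Sxl RNAi and 10.53, 10.82 and 10.14 in GFP (-1.50 ± 0.21, adjusted p = 0.00353). In both genes the Sxl RNAi array of control set 2 was the high one of its group.

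*Ppn*, encoding the matrix protein papilin, read 7.22, 8.55 and 8.47 in Sxl RNAi and 9.57, 8.99 and 9.65 in GFP (-1.33 ± 0.28, adjusted p = 0.0217), and lost its call without GFP replicate 1, GFP replicate 3 or Sxl RNAi replicate 3. *Irc*, an immune-regulated catalase, read 10.17, 10 and 10.03 in Sxl RNAi and 11.58, 10.56 and 11.18 in GFP (-1.04 ± 0.13, adjusted p = 0.00277). The Sxl RNAi arrays of *Irc* lay within 0.2 of each other and below all GFP arrays.

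*Bsg*, a membrane protein of the immunoglobulin family, read 8.44, 10.01 and 9.34 in Sxl RNAi and 9.69, 10.57 and 10.33 in GFP (-0.93 ± 0.12, adjusted p = 0.00277). Its second probe set fell as well, by 0.75 (adjusted p = 0.00742). *He*, the hemocyte surface protein Hemese, read 6.84, 10.39 and 6.08 in Sxl RNAi and 8.04, 10.56 and 7.78 in GFP (-1.02 ± 0.22, adjusted p = 0.024). The arrays of control set 2 were above all others for *He* and hardly differed from each other, and the call was lost without any 1 of the 4 remaining arrays.

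*Tret1-1*, a trehalose transporter, fell in each pair, at 8.23, 8.16 and 7.13 in Sxl RNAi and 9.62, 8.96 and 8.07 in GFP (-1.04 ± 0.13, adjusted p = 0.00268). *Pof*, whose protein coats the fourth chromosome, stood at 5.46, 6.71 and 5.90 in Sxl RNAi and 6.99, 7.15 and 7.08 in GFP (-1.05 ± 0.16, adjusted p = 0.00605). For *Pof* the GFP arrays were within 0.2 of each other, and the Sxl RNAi array of control set 2 came closest to them. The remaining falls of this group, *CG10126*, *CG33775*, *CG3348*, *Gr94a* (a gustatory receptor), *TpnC4* (a troponin C), *CG6330* and *CG10163*, ranged from -1.37 to -0.91 and kept their calls without any 1 array. *CG10163* read 4.15, 4.39 and 4.21 in Sxl RNAi and 5.40, 5.29 and 4.80 in GFP, and its groups did not overlap.

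On the X, the largest rise was that of *CG2444*. It read 6.18, 6.51 and 6.16 in Sxl RNAi and 4.84, 4.81 and 4.67 in GFP (1.51 ± 0.08, 2.85-fold, adjusted p = 0.000134). Its arrays were close within each group, and it held without the block, as did *Paics*, a bifunctional enzyme of purine synthesis, at 11.49, 11.50 and 11.42 in Sxl RNAi and 10.33, 10.58 and 10.19 in GFP (1.11 ± 0.08, adjusted p = 0.000321).

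*moody*, a G-protein coupled receptor known from glia of the blood-brain barrier, read 7.72, 7.20 and 7.78 in Sxl RNAi and 5.62, 6.31 and 6.92 in GFP (1.28 ± 0.20, adjusted p = 0.006). Of the 4 glial markers measured, *moody* and *Gs2* rose, *repo* was at 3.73 in both groups, and *nrv2* stood at 7.25 in Sxl RNAi and 7.53 in GFP (-0.27, adjusted p = 0.141). The summed level, which includes *moody* itself, was 8.54 to 9.55 in Sxl RNAi and 8.21 to 9.16 in GFP. The part of these markers in the *moody* result was not tested. *IP3K2*, an inositol trisphosphate kinase, read 9.35, 8.65 and 10.38 in Sxl RNAi and 8.28, 7.39 and 9.17 in GFP (1.18 ± 0.07, adjusted p = 0.000142). Its 3 pair differences were close to equal, while a second probe set stood higher by 0.58 and was not called (adjusted p = 0.0861).

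*baz*, the Par-3 scaffold of apical polarity, read 6.66, 8.37 and 7.94 in Sxl RNAi and 5.40, 7.22 and 7.04 in GFP (1.10 ± 0.14, adjusted p = 0.00254). *APC7*, a subunit of the anaphase-promoting complex, read 8.11, 6.11 and 8.62 in Sxl RNAi and 7.30, 4.38 and 7.77 in GFP (1.13 ± 0.15, adjusted p = 0.00333). *CG15202* read 10.75, 9.94 and 10.54 in Sxl RNAi and 10.05, 8.09 and 9.72 in GFP (1.12 ± 0.18, adjusted p = 0.00702). The last 2 genes were low in the GFP array of control set 2. Of the 10 largest X rises 6, these among them, were largest in that set, against 2 of the 15 autosomal rises. *CG4928*, *CG14629* and *CG2233* made up the group with rises of 1.24, 1.20 and 1.13.

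Only 22 X genes fell, and the 5 largest falls were less steady than the rises. *CG4119* stood at 6.52, 8.02 and 7.02 in Sxl RNAi and 8.37, 8.48 and 8.59 in GFP (-1.29 ± 0.21, adjusted p = 0.00768). *tyf*, a translational activator of the clock gene *period*, stood at 5.67, 6.86 and 5.92 in Sxl RNAi and 7.04, 7.11 and 7.23 in GFP (-0.98 ± 0.19, adjusted p = 0.0147). In both, the GFP arrays were within 0.3 of each other and the Sxl RNAi array of control set 2 was nearest to them. *Cubn*, an endocytic receptor, *S6KL*, a protein kinase gene, and *CG1835* fell by 0.78, 0.80 and 0.80. All 5 lost their calls without at least 1 array, and none of the 10 X rises did. *CG1835* was also not called without control set 2.

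Of these 45 largest changes, 33 were called without any 1 array, and the groups of 22 did not overlap, where 12.8% of all genes had groups that did not overlap. The genes were chosen for the size of the change, so that nothing is read from that comparison.

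Over the X as a whole, expressed genes had a median change of 0.23 and expressed autosomal genes one of -0.05, a difference of 0.28 in the fit that measured 0.29, 0.34 and 0.25 in the 3 pairs. With 3 arrays against 3, exchanged without regard to control sets, the exact two-sided permutation test gave p = 0.1, the smallest value it allows. When signs were flipped within the 3 control sets the exact two-sided p was 0.25, again the smallest possible. Of the expressed X genes, 398 of 1047 rose (38%) and 17 fell (1.62%). The autosomal arms had medians of -0.05 for 2L, -0.04 for 2R, -0.05 for 3L and -0.06 for 3R. Chromosome 4, with 29 expressed genes, had a median of -0.08 that was below 0 in control sets 1 and 3 (-0.16 and -0.14) and above 0 in set 2 (0.06). Rises were spread unevenly over the autosomal arms, with 80 of 2428 genes on 2R (3.29%) against 1.65% to 2.09% on 2L, 3L and 3R.

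When the expressed X genes were taken in their order along the chromosome and divided into 10 groups of 104 or 105, every group had a median above 0. The medians lay between 0.15 and 0.29 in 9 groups, and the sixth group reached 0.39, with 67 of 105 genes called higher (63.8%). That group was the highest in each control set taken alone, at 0.46, 0.40 and 0.33. Its median expression level, 8.24, was the lowest of the 10 groups, which ran up to 9.08. The last group, at the end of the gene order, had the fewest rises, with 25 of 104 (24.0%).

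**Figure D3:**
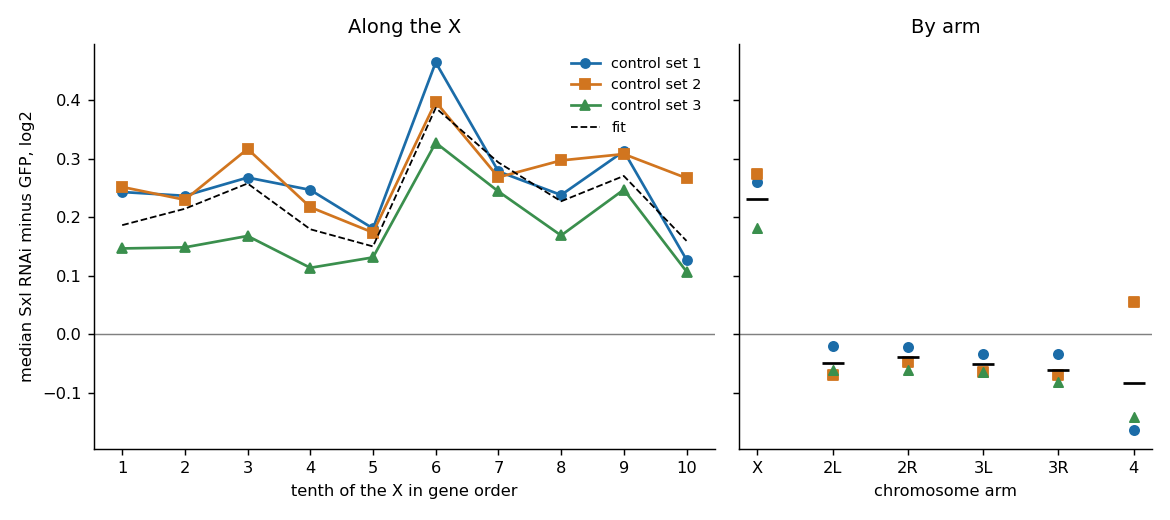
Median log2 change of expressed genes, Sxl RNAi minus GFP. The left panel divides the X into 10 groups of 104 or 105 genes in gene order and shows each control set and the fit (dashed). The right panel shows the X and the autosomal arms, with the fit as a bar. All 10 X groups lie above 0 in each control set, and arms 2L, 2R, 3L and 3R lie below 0 in each.

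Neighbouring genes that were called in the same direction formed longer runs on the X, where more genes were called, than elsewhere. The longest run on the X had 8 consecutive measured genes (*Ndc80*, *BthD*, *tth*, *Tango2*, *CG2691*, *NFAT*, *DNAlig4* and *CG11164*), with changes of 0.30 to 0.87. On the autosomes the runs of 3 were few. *Idgf1*, *Idgf2* and *Idgf3*, a cluster of related growth factor genes on 2L, rose by 0.40 to 1.55, and *mle*, *Pngl* and *Strica* on 2R by 0.34 to 0.94. 3 runs on 2L fell, *nAChRbeta3*, *rempA* and *Tspo* by 0.33 to 0.68 in size, *Sirup*, *Wwox* and *Spn28Dc* by 0.33 to 0.80, and *Trf*, *Bsg* and *mon2* by 0.28 to 0.93. The genes of these runs were named after their values had been seen.

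Then 45 lists of genes outside MSL, sex determination and the cell cycle were read, which hold 1811 measured genes. Of the 249 on the X, 50 rose (20.1%) and 1 fell (0.402%), and of the 1562 on the autosomes 37 rose (2.37%) and 78 fell (4.99%), against 21.7% and 1.17% for all X genes and 2.22% and 3.99% for all autosomal genes. The lists as a whole thus stood near the background. The shares for all X genes and all autosomal genes are the background for the counts of each list below. Among expressed genes the shares were higher, with 38% rising on the X and 4.08% rising and 7.53% falling on the autosomes. An X member rose in 27 lists, and more autosomal members fell than rose in 21 lists, with the opposite in 10. With autosomal centring these numbers were 16 and 15, and they moved in other fits too, to 10 and 2 with the control sets as a random block. Members of a list beyond the 4 of largest change were named after their values had been seen.

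**Figure D4:**
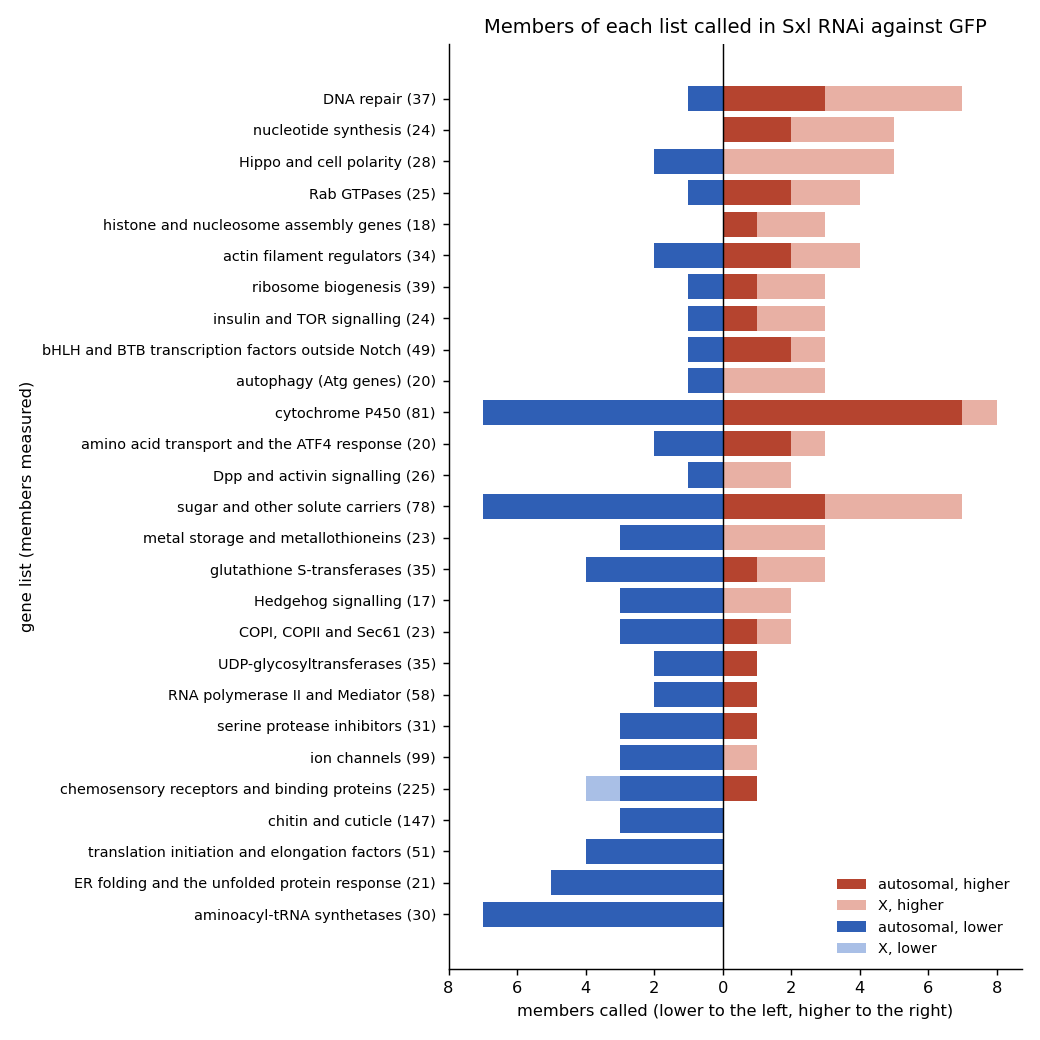
Number of members called in each list with at least 3 calls, falls to the left and rises to the right of 0, with autosomal members in dark and X members in light colours. The number measured stands in parentheses. The aminoacyl-tRNA synthetases, the ER folding genes, the translation factors and the chitin and cuticle genes have falls and no rises. In this order the falls were 25.9%, 26.3%, 8.89% and 2.33% of the autosomal members. Of all autosomal genes 3.99% fell, and of expressed autosomal genes 7.53%. The 5 polarity and 3 autophagy rises are X genes.

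Aminoacyl-tRNA synthetases, which load amino acids onto tRNAs, had 7 falls and no rise among 30 measured genes, and the 7 were all among the 27 autosomal members. The autosomal members had a median change of -0.23, against -0.05 for expressed autosomal genes, of which 7.53% fell. *ValRS* read 9.76, 10.05 and 9.70 in Sxl RNAi and 10.25, 10.37 and 10.26 in GFP (-0.46 ± 0.08, adjusted p = 0.00974). *IleRS* read 10.54, 10.84 and 10.67 in Sxl RNAi and 11.02, 11.08 and 11.08 in GFP (-0.38 ± 0.08, adjusted p = 0.021). The groups of both did not overlap, nor did those of *AlaRS*, at 10.71, 10.74 and 10.68 in Sxl RNAi and 11.01, 11.03 and 11.00 in GFP (-0.31 ± 0.07, adjusted p = 0.0312).

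Divided after the values had been seen, the 13 autosomal cytoplasmic synthetases all lay below 0, from -0.46 to -0.19 with a median of -0.27, and held all 7 falls. The 14 mitochondrial enzymes had a median of -0.06, with 10 below 0 and none called by limma (3 lower at an unadjusted p under 0.05), and the 3 cytoplasmic enzymes on the X lay between -0.09 and 0.13. The falls were small, and the calls were sensitive. Only 2 members fell with autosomal centring, 2 without control set 2, 1 with the control sets as a random block, 0 without any block and 0 to 2 when any 1 array was left out. The list's median over its autosomal members was -0.18 with autosomal centring and -0.21 without control set 2.

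Genes of protein folding in the endoplasmic reticulum and of the unfolded protein response had 5 falls and no rise among 21. *Gp93*, the Hsp90 chaperone of the endoplasmic reticulum, read 11.41, 11.59 and 11.64 in Sxl RNAi and 11.99, 12 and 12.14 in GFP (-0.50 ± 0.07, adjusted p = 0.004). *Ero1L*, an oxidase for disulfide formation, read 9.41, 9.11 and 9.16 in Sxl RNAi and 10.04, 9.56 and 9.51 in GFP (-0.47 ± 0.08, adjusted p = 0.00668). Neither gene's groups overlapped. *Ire1*, a stress sensor of this compartment, *Manf*, a secreted stress protein, and *CaBP1*, a disulfide isomerase, fell by 0.35, 0.34 and 0.30. A second *Ire1* probe set changed by -0.38 and was not called (adjusted p = 0.365). The 5 falls were 26.3% of the 19 autosomal members, which had a median of -0.19 with 17 below 0. Expressed autosomal genes had a median of -0.05, and 7.53% of them fell. Of the ER list 4 falls were called without control set 2, 3 with autosomal centring and 1 with a random block. Without a block 0 were called, and 1 to 4 without any 1 array. *Hsc70-3* (BiP), which is on the X, changed by 0.18 and was not called.

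**Figure D5:**
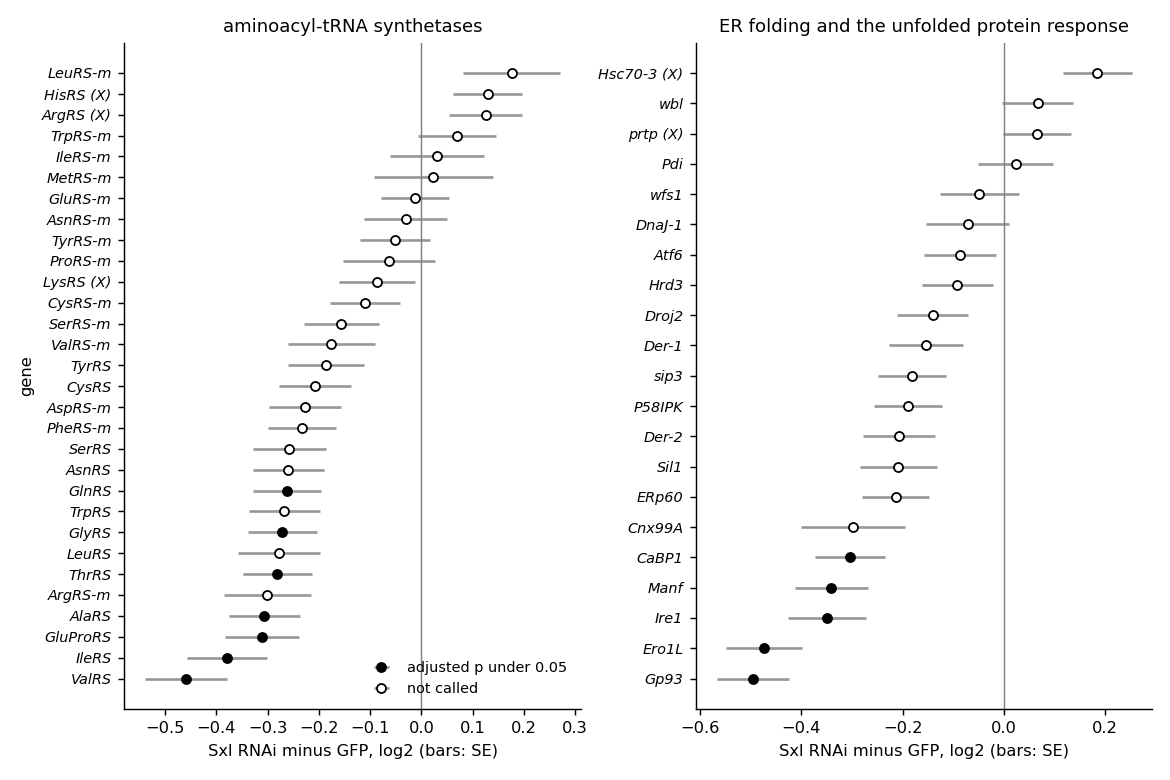
Log2 change of Sxl RNAi minus GFP with its SE for every measured aminoacyl-tRNA synthetase (left, symbols ending in -m are mitochondrial) and every ER folding gene (right). Filled points have an adjusted p under 0.05, and all of these lie below 0 on both sides.

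Genes of vesicle coats and of the translocon, through which secreted proteins pass, had 2 rises and 3 falls among 23. *Sec24CD*, of the COPII coat, *Sec61alpha* and *Sec61beta*, of the translocon, fell by 0.36, 0.33 and 0.28, while *zetaCOP*, of the COPI coat, and *Sec61gamma* on the X rose by 0.38 and 0.31. The counts were not stable, with 3 rises and 1 fall under autosomal centring, and 0 and 0 with a random block or when GFP replicate 1 or either of Sxl RNAi replicates 2 and 3 was left out. Translation initiation and elongation factors had 4 falls and no rise among 51. The falls were 8.89% of the 45 autosomal members, where 3.99% of all and 7.53% of expressed autosomal genes fell. *eIF2Bgamma* and *eIF2Bdelta*, subunits of the exchange factor for eIF2, fell by 0.41 and 0.38 with groups that did not overlap, and *eIF4E6* and *eIF2A* by 0.40 and 0.27. Both *eIF2B* calls were lost without GFP replicate 1 and without Sxl RNAi replicates 2 or 3.

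Amino acid transporters and genes known from amino acid shortage had 3 rises and 2 falls among 20. *aay*, the phosphatase that completes serine synthesis, read 6.87, 8.14 and 7.49 in Sxl RNAi and 5.65, 7.22 and 6.81 in GFP (0.94 ± 0.11, adjusted p = 0.00183). *Sesn*, sestrin, an inhibitor of TORC1, read 8.14, 9.02 and 8.26 in Sxl RNAi and 7.07, 8.39 and 7.34 in GFP (0.87 ± 0.09, adjusted p = 0.00111). *Shmt*, the X-linked enzyme that converts serine to glycine, read 12.46, 12.30 and 12.42 in Sxl RNAi and 11.80, 11.80 and 11.86 in GFP (0.57 ± 0.07, adjusted p = 0.00203). All 3 were higher in every pair and kept their calls without any 1 array, whereas *JhI-21*, an amino acid transporter, and *AsnS*, asparagine synthetase, fell by 0.31 and 0.29. Both falls lost their calls with autosomal centring, with the 6 arrays alone, with a random block or no block, and without any 1 array of control sets 1 or 3. The rises of *aay* and *Sesn* were also not called with a random block or no block, and the groups of both overlapped. *Shmt* kept its call in both of these fits.

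Of 81 cytochrome P450 genes, 8 rose and 7 fell, 7 and 7 of them on the autosomes, and 23 were expressed. The autosomal rises and falls were each 10.4% of the 67 autosomal members, where 2.22% of all autosomal genes rose and 3.99% fell. The 4 of largest change were all rises on 2R. *Cyp12d1-d*, a mitochondrial P450 whose near-identical tandem copy *Cyp12d1-p* may share its probes, read 8.53, 9.19 and 9.76 in Sxl RNAi and 6.73, 8.21 and 8.47 in GFP (1.36 ± 0.13, adjusted p = 0.000811). *Cyp6w1* read 5.96, 6.66 and 6.77 in Sxl RNAi and 4.57, 5.69 and 5.72 in GFP (1.14 ± 0.09, adjusted p = 0.000584). The groups of these 2 genes did not overlap.

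*Cyp6a2* and *Cyp6a8*, enzymes known from insecticide metabolism, differed strongly between control sets. *Cyp6a2* read 6.19, 7.96 and 6.66 in Sxl RNAi and 4.91, 7.16 and 5.63 in GFP (1.03 ± 0.09, adjusted p = 0.00064). *Cyp6a8* read 7.98, 10.02 and 9.17 in Sxl RNAi and 5.78, 9.62 and 7.78 in GFP (1.33 ± 0.26, adjusted p = 0.0156), and was not called once Sxl RNAi replicate 2 or replicate 3 was left out. The falls were led by *Cyp4p1*, *Cyp28a5* and *Cyp28d1*, at -0.87, -0.82 and -0.57. Without control set 2, 5 P450 genes rose and 5 fell, leaving out any 1 array gave 4 to 7 rises and 3 to 5 falls, and with a random block 0 were called either way.

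The other detoxification families followed with fewer calls. Glutathione S-transferases, which conjugate glutathione to reactive compounds, had 3 rises and 4 falls among 35. *GstD2* read 4.47, 5.73 and 4.76 in Sxl RNAi and 5.20, 6.45 and 5.43 in GFP (-0.71 ± 0.07, adjusted p = 0.000756), and *GstE9*, *GstE7* and *GstE1* fell by 0.52, 0.36 and 0.32. A second *GstE9* probe set, dim at a mean of 3.55, changed by -0.09 and was not called (adjusted p = 0.588). *GstO3* on 3L rose by 0.58, and *GstT4* and *Mgstl* on the X by 0.66 and 0.51. Among 35 UDP-glycosyltransferases, *Ugt302C1* and *Ugt37D1* fell by 0.71 and 0.51, and *Ugt49B1* rose by 0.32. Of 17 redox defence genes only *ref(2)P*, an adaptor of selective autophagy, was called, at -0.36.

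Nucleotide synthesis had 5 rises and no fall among 24 genes. On the X 3 of 5 members rose, where 21.7% of all X genes and 38% of expressed X genes did. On the autosomes 2 of 19 rose, where 2.22% of all and 4.08% of expressed autosomal genes did. Of these 19, 16 were expressed. *dnk*, the deoxyribonucleoside kinase, is on 3R and read 12.38, 11.76 and 12.04 in Sxl RNAi and 11.33, 11.30 and 11.38 in GFP (0.72 ± 0.10, adjusted p = 0.00393). The GFP arrays agreed within 0.1 and lay below all Sxl RNAi arrays. *r*, the X gene of the enzyme that opens pyrimidine synthesis, read 8.11, 8.69 and 8.36 in Sxl RNAi and 7.06, 8.12 and 7.82 in GFP (0.72 ± 0.13, adjusted p = 0.0126). *ras*, for IMP dehydrogenase, and *veil* rose by 0.32 and 0.28. Without control set 2, 4 members rose and 2 fell, and without Sxl RNAi replicate 2 or replicate 3, 2 rose.

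DNA repair genes had 7 rises and 1 fall among 37. On the X 4 of 7 members rose, where 21.7% of all X genes and 38% of expressed X genes did. On the autosomes 3 of 30 rose, where 2.22% of all and 4.08% of expressed autosomal genes did. Of these 30, 28 were expressed. *mus101*, *Xpac*, *Ogg1* and *DNAlig4*, all on the X, rose by 0.51, 0.44, 0.43 and 0.36, and *Fancl*, *PCNA* and *Msh6* on the autosomes by 0.57, 0.38 and 0.33. *PCNA*, the sliding clamp, and *Msh6*, of mismatch repair, act at the replication fork as well. *PolQ*, the polymerase of end joining, fell by 0.56. The count of rises moved with single arrays, to 1 without GFP replicate 1, 2 without Sxl RNAi replicate 2 or replicate 3, and was 0 with a random block. Of 18 histone and nucleosome assembly genes, 3 rose and none fell, among them the chaperone genes *asf1* on 3L and *Hira* on the X, by 0.46 and 0.33. *asf1* read 8.43, 8.16 and 8.69 in Sxl RNAi and 7.74, 7.91 and 8.26 in GFP (adjusted p = 0.0187), with groups that overlapped.

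Of 28 polarity and Hippo pathway genes 5 rose, all of them among the 8 on the X. Of all X genes 21.7% rose, and of expressed X genes 38%. The other 20 members are autosomal, where 2.22% of all genes rose, and of these *scrib* and *Rassf* fell. *jub*, the LIM protein Ajuba, read 9.86, 9.61 and 9.59 in Sxl RNAi and 9.19, 9.0 and 8.92 in GFP (0.65 ± 0.07, adjusted p = 0.00106), and the groups did not overlap. *dlg1* and *par-6*, scaffolds of the basolateral and apical domains, rose by 0.45 and 0.33, and *lic*, known as a MAP kinase kinase of the p38 pathway, by 0.50. The brightest *scrib* probe set read 6.72, 7.70 and 6.94 in Sxl RNAi and 7.54, 8.08 and 7.93 in GFP (-0.73 ± 0.12, adjusted p = 0.00684). Of its other 4 probe sets, 1 fell by 0.62 and the remaining 3 changed by 0.20, 0.14 and -0.12 and were not called, so that the direction for *scrib* as a gene is uncertain.

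Among 20 autophagy genes, 19 of them expressed, 3 rose and 1 fell, and the rises were the 3 members on the X. Of all X genes 21.7% rose, and of expressed X genes 38%. *Atg101*, of the initiating kinase complex, read 8.39, 8.15 and 8.40 in Sxl RNAi and 7.34, 7.40 and 7.61 in GFP (0.86 ± 0.09, adjusted p = 0.00111). *Atg5* and *Atg8a*, of the conjugation system, rose by 0.62 and 0.39, while of the 17 on the autosomes *Atg13* alone was called, at -0.32. Among 23 metal genes, *Ctr1A*, the copper importer, *ATP7*, the copper exporter, and *fh*, frataxin, rose on the X by 0.71, 0.51 and 0.34. *Alas*, the first enzyme of haem synthesis, *Nfs1*, the sulfur donor of iron-sulfur clusters, and *mfrn*, the mitochondrial iron carrier, fell on the autosomes by 0.54, 0.37 and 0.35. *Ctr1A* read 9.27, 9.10 and 9.34 in Sxl RNAi and 8.49, 8.48 and 8.63 in GFP, and its call held in every fit.

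Among the signalling pathways, Hedgehog genes had 2 rises on the X and 3 falls elsewhere, out of 17. The X held 2 members, and 21.7% of all X genes and 38% of expressed X genes rose. The falls were among 15 autosomal members, 12 of them expressed. Of all autosomal genes 3.99% fell, and of expressed autosomal genes 7.53%. *boi*, a co-receptor, and *shf*, a secreted protein that stabilises the ligand, rose by 0.66 and 0.57. *ci*, the transcription factor of the pathway, on chromosome 4, *disp*, which releases the ligand, and *ihog*, the other co-receptor, fell by 0.43, 0.37 and 0.32. *ci* read 7.96, 4.76 and 6.49 in Sxl RNAi and 8.39, 5.25 and 6.87 in GFP, so that its fall was even across pairs although the control sets lay more than 3 log2 units apart. Without control set 2, 1 Hedgehog gene rose and 1 fell.

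In insulin and TOR signalling, *Nprl2*, of the GATOR1 complex that restrains TORC1, and *rictor*, of TORC2, rose on the X by 0.57 and 0.42. *ImpL2*, which binds insulin-like peptides, read 12.65, 12.10 and 12.52 in Sxl RNAi and 13.17, 12.47 and 13.21 in GFP (-0.53 ± 0.08, adjusted p = 0.00629). *Pvf1*, a ligand of the PDGF and VEGF receptor family, rose on the X, at 6.16, 6.46 and 6.48 in Sxl RNAi and 5.36, 5.70 and 6.04 in GFP (0.67 ± 0.10, adjusted p = 0.00482). *Smox*, the Smad of the activin branch, rose by 0.35 on the X, and *magu* fell by 0.35. No member of the 12 Wnt, 12 circadian clock or 39 Ets, GATA, Runx and nuclear receptor genes was called by limma. At an unadjusted p under 0.05 these lists had 1 higher and 2 lower, 0 and 3, and 1 and 0. *srp*, the GATA factor of blood cells, read 10.27, 11.13 and 10.28 in Sxl RNAi and 10.50, 10.86 and 10.55 in GFP (-0.08 ± 0.11, adjusted p = 0.813).

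Membrane transport was mixed. Of 78 solute carriers, 7 rose and 7 fell, and 4 of the rises and none of the falls were on the X. *MFS3* read 11.47, 11.05 and 11.46 in Sxl RNAi and 12.40, 11.74 and 12.15 in GFP (-0.77 ± 0.08, adjusted p = 0.000933). *out*, of the monocarboxylate transporter family, rose on the X by 0.95, and *MFS10* by 0.71. The vacuolar ATPase, which acidifies endosomes and lysosomes, had no call by limma among 31 measured genes, 15 of them expressed, where 11.6% of expressed autosomal genes were called. At an unadjusted p under 0.05, 1 was higher and 8 were lower, and other fits called falls here, 6 with an intensity trend, 4 with dim probe sets left out, 3 with 1 probe set per gene and 2 without control set 2. *Vha16-1* and *Vha26* changed by -0.14 and -0.16. Only *Ppt1*, on the X, was called among 26 lysosomal hydrolase genes (0.61), and its groups overlapped.

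Rab GTPases, switches of vesicle traffic, had 4 rises and 1 fall among 25. *Rab32* read 7.05, 6.83 and 7.0 in Sxl RNAi and 5.87, 6.0 and 6.26 in GFP (0.92 ± 0.12, adjusted p = 0.00322). *Rab2* read 7.18, 7.68 and 7.65 in Sxl RNAi and 6.43, 6.65 and 6.93 in GFP (0.83 ± 0.09, adjusted p = 0.00144). Both are on 2R, and for both the groups did not overlap, as was the case for *RabX4* on 3R, which fell by 0.71. *Rab40* and *Rab18*, on the X, rose by 0.64 and 0.36. Among 34 actin regulators, *DAAM*, a formin, and *Moe*, moesin, rose on the X by 0.84 and 0.49, *Gel*, gelsolin, and *cher*, filamin, rose on the autosomes by 0.50 and 0.36, and *spir* and *flr* fell by 0.51 and 0.31.

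Few calls were made in families whose members are mostly off in these cells. Of 225 chemosensory genes 8 were expressed, 1 rose and 4 fell, among them *Or1a*, the only X member of any list that fell (-0.53). Of 99 ion channel genes 13 were expressed. The nicotinic receptor subunits *nAChRbeta2*, *nAChRalpha4* and *nAChRbeta3* fell by 0.67, 0.55 and 0.41, and the gap junction gene *Inx2* on the X rose by 0.66. A second *nAChRalpha4* probe set changed by -0.13 and was not called (adjusted p = 0.510). *nAChRbeta3* read 10.58, 9.55 and 10.11 in Sxl RNAi and 11.22, 9.78 and 10.47 in GFP. Of 147 chitin and cuticle genes the chitinases *Cht2* and *Cht10* fell by 0.75 and 0.74, and *Cpr49Ae* by 0.31. The falls were 2.33% of the 129 autosomal members, where 3.99% of all autosomal genes fell. Serine protease inhibitors had 1 rise and 3 falls among 31. *Spn88Ea* read 8.60, 8.59 and 8.60 in Sxl RNAi and 9.31, 9.10 and 9.31 in GFP (-0.64 ± 0.07, adjusted p = 0.00146), and its call held in every fit.

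Several large sets of housekeeping genes hardly changed in call. Of 39 cullin ligase genes, *Roc1a* and *SkpA*, core subunits that lie close together on the X, rose by 0.83 and 0.31, and none of the 34 on the autosomes was called by limma (2 higher and 5 lower at an unadjusted p under 0.05). *Roc1a* read 8.0, 8.14 and 8.18 in Sxl RNAi and 7.08, 7.25 and 7.50 in GFP (adjusted p = 0.000619). Of 39 splicing factors, *U2af50* on the X and *Hrb98DE* rose by 0.44 and 0.28. A second *Hrb98DE* probe set changed by 0.10 and was not called (adjusted p = 0.631). Of 41 Polycomb and trithorax genes, *Bap60* on the X rose by 0.35 and *Utx* fell by 0.46. Of 30 mRNA decay genes *Rcd-1* on the X rose by 0.33, and of 32 nucleoporins *Nup93-1* on the X and *Nup154* rose by 0.63 and 0.32.

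Where a gene had several probe sets, they often did not give the same call. Of 1094 such genes, 150 had at least 1 probe set called, 21 had all of them called the same way, 41 were called only on a probe set other than the one read, and *M7BP* and *be* had 1 probe set higher and another lower. Of the probe sets with no symbol, the one that fell most read 6.82, 7.03 and 6.37 in Sxl RNAi and 8.90, 7.95 and 7.53 in GFP (-1.39 ± 0.18). The one that rose most read 9.65, 10.63 and 10.03 in Sxl RNAi and 7.81, 10.15 and 8.69 in GFP (1.22 ± 0.20).

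The cells given double-stranded RNA against both *Sxl* and *Msl2* were measured on the remaining 2 arrays, in control sets 1 and 3. Their values against GFP come from the same fit over all 8 arrays with the control sets as a block, so that both comparisons share GFP arrays and are not plain differences within a set. In these 2 arrays the brightest *Sxl* probe set read 6.65 and 7.37, against 7.20 and 6.99 in the GFP arrays of the same sets. Its change in the fit was -0.05 (limma, adjusted p = 0.951), so that *Sxl* was not shown to be lower there. How far this bears on the differences below was not tested. *CG14990* changed by 1.27 in Sxl RNAi against GFP and by -0.19 in Sxl and Msl2 RNAi against GFP, and the fit placed Sxl RNAi above the double knockdown by 1.46 ± 0.17 (adjusted p = 0.0101). *CG2444* changed by 1.51 and 0.29 in the same order, a difference of 1.23 ± 0.10 (adjusted p = 0.0021). *APC7* changed by 1.13 and 0.20, and the difference of 0.93 ± 0.18 was not called (adjusted p = 0.068). *TM4SF* changed by 1.34 and 1.13, with a difference of 0.21 ± 0.12 (adjusted p = 0.642). *Gnmt* changed by 1.70 and 1.70, *Pxn* by 1.39 and 1.37, *CG4611* by 1.20 and 1.36, and *baz* on the X by 1.10 and 1.28. Apart from *CG14990* and *CG2444*, none of the 15 largest autosomal rises and 10 largest X rises had a called difference between the knockdowns. The genes of this comparison were chosen after their values had been seen.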

How the data were processed

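Total RNA of Kc cells was hybridised to Affymetrix arrays, and the authors deposited log2 values summarised by RMA. Which software and settings ran RMA is not stated in the sources used here, and the log2 scale was read from the range of the values. From these values limma 3.58.1 in R 4.3.3 was fitted (lmFit, eBayes) to all 18769 non-control probe sets on all 8 arrays, with the control set as a fixed block, which leaves 3 residual degrees of freedom. The block follows from the sample descriptions, and the deviations of arrays of a set from their group means correlated at 0.824, 0.893 and 0.857 over expressed genes. P-values were adjusted over all probe sets by Benjamini-Hochberg. A further contrast set Sxl RNAi against the double knockdown.

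Of the probe sets, 13647 had 1 gene symbol, 402 several and 4720 none in GEO's platform annotation. Of 11982 genes, 11899 were matched to a RefSeq gene table (Release 6 plus ISO1 MT) for names, arms and gene order only.

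Named were the 15 largest rises and falls on the autosomes, and the 10 largest rises and 5 largest falls on the X. Each had 1 sign in every pair and lay outside lists of MSL, sex determination and cell cycle genes, which did not hold *APC7*. Up to 4 called members of each of the 45 lists were named as well (2 of highest mean where none was called). Members and lists were chosen with earlier results of these data known, and the P450 pattern was corrected once after it had matched a cyclophilin. Precision is limited by the number of arrays. The fit was tested on simulated data. Alternatives were no block, a random block, 6 arrays, autosomal centring, dim probe sets left out, 1 probe set per gene, an intensity trend, and leaving out each array or control set 2.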

Additional observations from a re-analysis of the deposited data

How the results depend on the processing

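Without the control sets as a block 25 genes were called, 21 higher and 4 lower (autosomal 3 and 3, X 18 and 1), and 27 probe sets. With the sets as a random block 227 genes were called, 160 higher and 67 lower (autosomal 31 and 63, X 128 and 4), and 267 probe sets. Autosomal centring gave 263 genes lower, and on the autosomes 248 lower and 313 higher, where the values as deposited gave 400 and 222. Leaving out 1 array gave 366 to 847 genes, with 266 to 499 higher, 100 to 348 lower, 67 to 200 autosomal higher, 93 to 320 autosomal lower, 198 to 323 X higher, 5 to 28 X lower and 452 to 1074 probe sets. The counts were lowest without Sxl RNAi replicate 2 (366 genes), GFP replicate 1 (379) and Sxl RNAi replicate 3 (418). In control set 2, leaving out either array removes the whole pair from the comparison. In control sets 1 and 3 the partner array still enters it through the double knockdown array of its set. Without control set 2, 847 genes were called, of which 690 were among the 1053. The 6 arrays alone gave 883 genes, the brighter probe sets 1258, 1 probe set per gene 1237 and an intensity trend 1382. The X shift was 0.26 to 0.30 without 1 array or control set 2, and the other settings leave it at 0.28 by construction. Of 160 named genes called, 81 lost the call without at least 1 array, and no named gene changed direction. The causes were not tested. Depth is not defined for arrays.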
